A study of Homo sapiens with 2 samples.

Results

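The genes described here are the 247 protein-coding genes of human chromosome 19 whose name begins with ZNF, out of 57820 genes in the count table. They were chosen by name, gene type and chromosome alone, and not by their levels. All 247 identifiers stood in both deposited tables, of which 1 held columns that could be matched to labelled samples. The samples were 2 replicate libraries of 1 group: T47D, an established line of estrogen receptor-positive luminal breast cancer, carrying the Y537S exchange in ESR1 (estrogen receptor alpha), in hormone-deprived medium with 25 nM control siRNA. The study also names an siRNA against KDM4C, a demethylase of histone H3 lysine 9; those samples were not analysed here, so no comparison between conditions was made. The labels do not say whether the line is 1 clone, nor if separate cultures gave the replicates, whose spread may therefore be technical.

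Most ZNF proteins of this chromosome carry a KRAB domain at the front and a row of C2H2 zinc fingers behind it. The fingers read DNA, often in retroelements, and the KRAB domain recruits TRIM28 (KAP1). TRIM28 in turn brings the methyltransferase SETDB1 and the HP1 proteins, which place and read trimethylation of H3 lysine 9. The genes arose by tandem duplication, lie side by side in clusters, and are in many cell types themselves covered with this mark, partly through ZNF274, which binds the finger-coding ends of ZNF genes. The mark was not measured in these libraries.

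The libraries held 41370662 reads on genes in replicate 1 and 37198274 in replicate 2. All 9 luminal epithelial markers, such as ESR1, GATA3 and KRT19, were detected, at 23.5 to 1385 TPM. None of the 15 markers of basal, mesenchymal, fibroblast, immune and endothelial cells was detected, and the highest of them stood at 0.230 TPM. TPM scales reads to exon length and library, CPM to the library alone, and detection here means at least 1 CPM in each of the 2 libraries. TPM was not scaled by TMM, which adjusts library sizes for the replicate test below. The members' median was 4.36 TPM in replicate 1 and 3.70 TPM in replicate 2. Over the 227 tested members the median TMM-scaled log2 ratio of replicate 2 to replicate 1 was -0.021. An SD of TPM therefore also holds a shift that many genes share. ZNF274, at 13.8 and 13.5 TPM, had a TMM-scaled log2 ratio of 0.15. In such bulk RNA, fewer cells with a transcript and less transcript per cell cannot be told apart. Reads that touched several genes were not counted by the authors' tool as it was called, and 86 members shared over 5% of their exon bases with another gene row, so their levels may be too low.

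Nearly the whole family was transcribed, at low levels within a narrow range. Of the 247 members 227 were detected (91.9%), against 60.9% of all 19263 protein-coding genes. For comparison, 217 of 258 protein-coding ZNF genes on other chromosomes were detected (84.1%), and 654 of 1201 other protein-coding genes of chromosome 19 (54.5%). The median level was 4.03 ± 0.47 TPM in the members (SD, n = 2 libraries), 4.76 ± 0.26 TPM in ZNF genes of other chromosomes and 1.15 ± 0.015 TPM in the other genes of chromosome 19. All protein-coding genes had a median of 2.31 ± 0.165 TPM, and 3590 of them had no read, against 5 of the members. Among genes with at least 1 read the order turned round: the members' median log2 level was then 0.32 below that of protein-coding genes.

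The interquartile range of the members was 1.74 on the log2 TPM scale, against 2.29 in ZNF genes elsewhere. It was 6.29 in the other genes of chromosome 19 and 6.59 in all protein-coding genes. Under 0.1 TPM lay 34.1% and 30.5% of these last 2 sets, against 10.9% of ZNF genes elsewhere and 4.45% of the members. Such genes widen the range of a set, and the ranges among detected genes alone were not compared. Between 1 and 10 TPM lay 186 members (75.3%), against 27.4% of all protein-coding genes. At 10 TPM or more lay 24 members (9.72%), against 20.2% of ZNF genes elsewhere, 23.8% of the other genes of chromosome 19 and 29.1% of all protein-coding genes. The family's 247 genes together held 0.407% of all reads in replicate 1 and 0.393% in replicate 2. These shares describe the 2 libraries and were not tested.

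**Figure D1:**
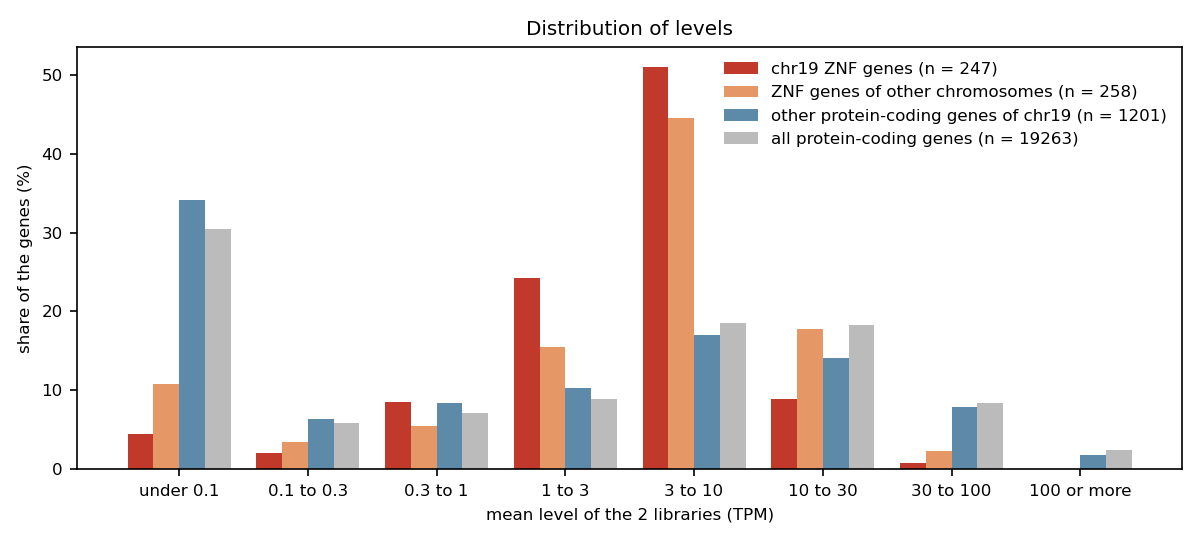
Share of genes (y axis, %) in 8 classes of mean TPM over the 2 libraries (x axis), for the chromosome 19 ZNF genes, ZNF genes of other chromosomes, other protein-coding genes of chromosome 19 and all protein-coding genes. The class of 3 to 10 TPM held 51.0% of the members and 18.5% of all protein-coding genes, and no member reached 100 TPM.

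At the top stood 3 genes. ZNF146, a protein made of zinc fingers with no KRAB pattern in its coding sequence, had 43.2 TPM in replicate 1 and 34.6 TPM in replicate 2, and lies in the reference hg19 at chr19:36705504-36729676. ZNF552, a KRAB zinc finger gene at chr19:58315209-58326281, had 36.4 and 39.1 TPM. ZNF460 followed with 30.8 and 25.7 TPM. These were the only members at a mean over 25 TPM, and they lie in clusters 6 and 10 of those described below by position. ZNF121 had 23.1 and 18.2 TPM, and ZNF562 had 19.9 and 16.1 TPM. Both lie in cluster 2, from 8.58 to 9.90 Mb on the short arm. The next 6 members, ZNF700, ZNF329, ZNF28, ZNF256, ZNF558 and ZNF83, had means of 15.8 down to 13.8 TPM, and the libraries' values of neighbours in that order overlapped in part. ZNF274, which binds other members' finger exons, was twelfth at 13.8 and 13.5 TPM.

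A mixed list of partners that KRAB zinc fingers work through and of other H3 lysine 9 genes had a higher median level than the members. Of 20 listed genes of the TRIM28, SETDB1, HP1 and HUSH machinery and of H3 lysine 9 methylation and demethylation, 18 were detected (90.0%, against 60.9% of protein-coding genes), with a median of 13.5 TPM. TRIM28, itself at the long-arm end of chromosome 19, averaged 88.4 ± 10.8 TPM, and the HP1 genes CBX3, CBX5 and CBX1 averaged 144 ± 24, 97.7 ± 14.7 and 94.4 ± 12.3 TPM (SD, n = 2 each). SETDB1 averaged 16.8 ± 1.0 TPM and its partner ATF7IP 11.4 ± 2.1 TPM. Of the HUSH complex, FAM208A (now called TASOR) averaged 28.5 ± 5.8 TPM, PPHLN1 11.6 ± 1.0 TPM and MPHOSPH8 7.50 ± 0.84 TPM. Among H3 lysine 9 demethylases KDM4B averaged 17.4 ± 1.1 TPM, KDM4A 17.0 ± 1.1 TPM and KDM4C 5.59 ± 0.48 TPM, while KDM4D stood at 0.741 ± 0.080 TPM. DAXX, with 4 and 7 reads, and EHMT2, with none, were not detected. Both lie in a stretch of chromosome 6 between 29 and 34 Mb in which 167 of 179 protein-coding genes had fewer than 20 reads in all, and the cause of that was not tested.

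Some members have described targets; these were picked for their known roles after the values were seen. ZNF91, a repressor of SVA retrotransposons, had 10.3 and 8.53 TPM. ZNF93 and ZNF649, which bind L1 elements, averaged 5.09 ± 0.14 and 4.59 ± 0.22 TPM. ZNF808, which represses MER11 elements, averaged 8.74 ± 0.43 TPM. By their means all 4 lay within the range of 1 to 10 TPM that held most of the family. ZNF350 (ZBRK1), a BRCA1 partner, averaged 6.85 ± 0.37 TPM. ZNF224, a cofactor of WT1, averaged 0.544 ± 0.019 TPM, but 75.0% of its exon bases were shared with another gene row.

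Of the members, 20 were not detected. No read fell in either library on ZNF560, ZNF536, ZNF677, ZNF625-ZNF20 and ZNF816-ZNF321P; a count of 0 allows up to 3 reads, or 0.073 and 0.081 CPM. The last 2 are read-through rows that share 100% of their exon bases with other rows, so that no read could be counted for them alone. ZNF536 is a repressor of neuronal differentiation, and ZNF541, a gene of male meiosis, had 22 and 15 reads. ZNF728 and ZNF534 had 3 reads in each library, and ZNF835 had 0 and 1. Of the 20, 10 shared over 5% of their exon bases, as did 76 of the 227 detected members. Just above the threshold stood ZNF625 (1.14 and 1.10 CPM) and just below it ZNF223 (0.894 and 0.968 CPM), and both share exon bases with neighbours, 84.2% and 45.4%.

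Split at gaps over 500 kb and with at least 4 members each, the family fell into 10 clusters with 233 members, and 14 members stood apart from them. Detection was high in every cluster, from 11 of 14 in cluster 2 (78.6%) to all members in clusters 1, 5 and 6 (100%). The cluster medians spanned 1.92 on the log2 TPM scale, and inside the clusters the interquartile range of the members' levels ran from 0.96 in cluster 5 to 2.72 in cluster 2 on the same scale. Cluster 2, from 8.58 to 9.90 Mb, had the highest median, 6.58 ± 0.72 TPM (SD, n = 2 libraries), with 5 of its 14 members at 10 TPM or more. In CPM, which leaves exon length out, cluster 8 was highest instead, 0.55 above the family median on the log2 scale, against 0.35 for cluster 2. Cluster 2 holds both ZNF121 and ZNF562 and, at the other end of its levels, ZNF560 with no read.

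Cluster 9, from 55.99 to 57.18 Mb, had the lowest median, 1.66 ± 0.30 TPM over 16 members. Its highest member was ZNF581 (9.37 and 11.0 TPM), and its lowest ZNF835. By medians this cluster also stood apart in sequence: the GC share of its coding sequences was 67.6%, against 37.9% to 46.9% in the other 9. Its median promoter held 29.5 CpG, and 6 of its 16 members had a KRAB pattern. The cluster was mixed, with coding GC from 39.3% to 75.0%. ZNF582, ZNF583, ZNF667, ZNF471 and ZNF470 lay between 39.3% and 41.6%. In cluster 10 the highest coding GC was 72.3%. ZNF581 and ZNF787 of cluster 9 lie 442 kb apart, under the 500 kb limit. Cluster 6, from 36.67 to 38.31 Mb, came next to lowest at 2.54 ± 0.45 TPM, although all its members were detected and ZNF146 lies in it; its lowest member ZNF540 had 0.903 and 0.701 TPM. Cluster 7, from 44.03 to 45.00 Mb, had 2.82 ± 0.31 TPM, between ZNF575 (0.234 and 0.445 TPM) and ZNF45 (8.84 and 8.11 TPM).

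The 2 largest clusters near the long-arm end were among the higher ones. Cluster 8, from 52.07 to 54.08 Mb, held 40 members at a median of 5.55 ± 0.78 TPM, led by ZNF28 (15.8 and 13.0 TPM). Cluster 10, from 57.70 to 58.99 Mb, held 42 members at 5.15 ± 0.21 TPM, of which 41 were detected; it runs from ZNF132 (0.299 and 0.133 TPM) to ZNF552 and contains ZNF274. Together with cluster 4 these 3 clusters hold 119 of the 247 members. Cluster 4, from 19.78 to 24.31 Mb, spreads its 37 members over 4533 kb next to the centromere. Its median was 4.34 ± 0.64 TPM, its lowest member ZNF728 and its highest ZNF676 (11.8 and 9.89 TPM). It had the lowest coding GC share, 37.9%, and the lowest median of promoter CpG, 10. With 36 fingers ZNF208, in this cluster, had the longest array of the family and 0.388 and 0.299 TPM.

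The remaining clusters were small or central. Cluster 3, from 11.59 to 12.75 Mb, had 26 members at 3.85 ± 0.48 TPM, led by ZNF700 (16.5 and 15.1 TPM). Cluster 1, at 2.82 to 2.94 Mb, had 5 members at 5.94 ± 0.37 TPM, from ZNF554 (1.56 and 1.69 TPM) to ZNF77 (6.84 and 6.02 TPM). Cluster 5, at 35.17 to 35.45 Mb, had 5 members at 4.56 ± 0.95 TPM, from ZNF599 (1.11 and 0.966 TPM) to ZNF302 (8.64 and 6.21 TPM). Its place above the family median, like that of cluster 1, turned round in CPM, and cluster 3 moved above the family median once members with shared exon bases were left out. The 14 members outside clusters had a median of 2.25 ± 0.30 TPM.

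**Figure D2:**
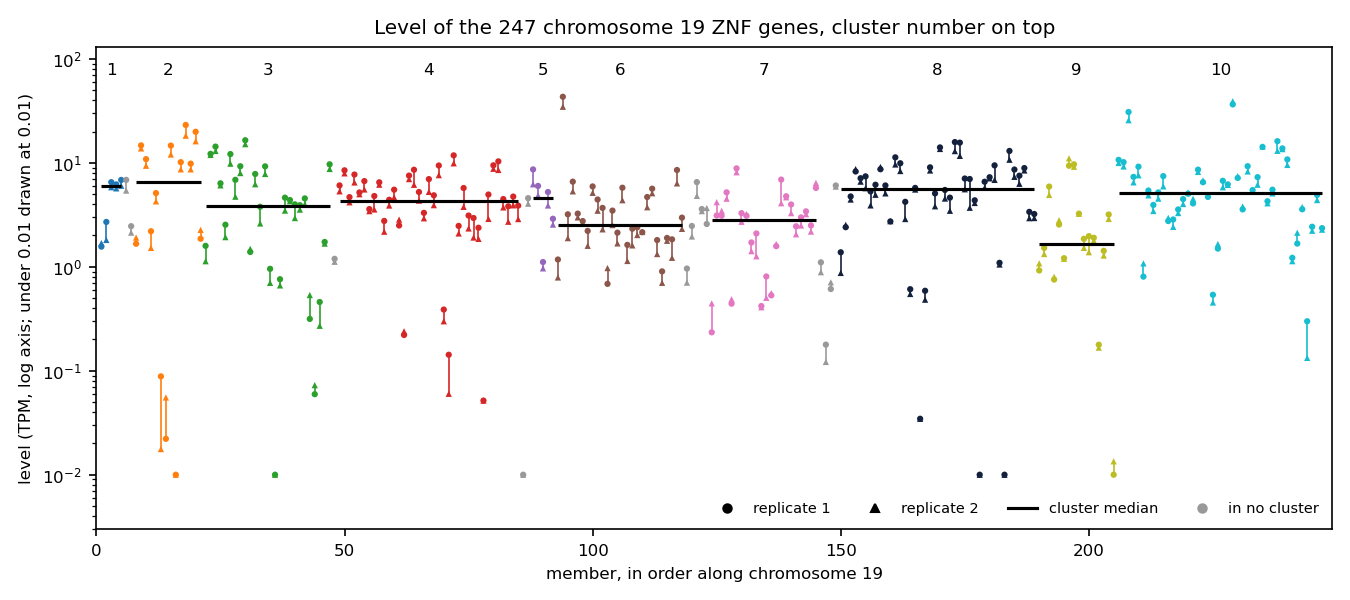
TPM (y axis, log scale) of each of the 247 members in order along chromosome 19 (x axis), with 1 point per library joined by a line, coloured by cluster; black bars are cluster medians. Cluster medians lie between 1.66 and 6.58 TPM, while members inside a cluster range from under 0.01 TPM, drawn at 0.01, to 43.2 TPM.

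Adjacent members often differed. Over 193 neighbouring pairs within clusters the median difference was 1.94-fold, on the log2(TPM + 0.1) scale, against a median of 1.15-fold between the 2 libraries for the same gene. The 1.15-fold was not TMM scaled, so it also holds the shift between the libraries that many genes share. Members that are not neighbours were not compared in this way. The difference exceeded 2-fold in 91 pairs (47.2%) and 8-fold in 27. Rows that share exon bases, whose counts may be too low, were not left out. ZNF266 stood 97.0-fold over ZNF177, which shared 91.9% of its exon bases. ZNF160 stood 62.5-fold over the read-through row ZNF816-ZNF321P, which shared 100%. The largest step, 134-fold for ZNF266 over ZNF560, lay between genes without shared exon bases. ZNF676, the highest member of cluster 4, stood beside ZNF257, which had 19 and 8 reads (0.143 and 0.060 TPM). The levels of neighbours had a Spearman correlation of 0.24 over the 193 pairs, which share libraries and members, so it is given as a description.

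The clusters also hold 106 protein-coding genes with other names, of which 32 were detected (30.2%). Detected were 215 of the 233 cluster members (92.3%) and 54.5% of all other protein-coding genes of chromosome 19. Among the 106 genes 13 are KRAB or SCAN zinc finger genes under another name, and 9 of these were detected (69.2%). All 8 olfactory receptors and all 3 vomeronasal receptors, which are genes of sensory neurons, were not detected.

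The KRAB A-box was read from the coding sequences of GENCODE release 29 as a pattern of its conserved residues, which 207 of 246 members with a coding sequence carried. A core of the box is shown for 3 members of cluster 7 and 3 highly expressed members of other clusters, because its second codon separates them. Each line runs 5′ to 3′ on the coding strand, and capitals mark that second codon, which is CTG or TTG (leucine) in the first 3 and TGG (tryptophan) in the others. In GRCh38 they lie at chr19:43919607-43919654 (minus strand, ZNF45), chr19:44148816-44148863 (plus, ZNF234), chr19:44172133-44172180 (plus, ZNF226), chr19:57813328-57813375 (minus, ZNF552), chr19:9658043-9658090 (minus, ZNF562) and chr19:11947226-11947273 (plus, ZNF700).
ZNF45: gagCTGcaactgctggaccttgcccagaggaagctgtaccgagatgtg
ZNF234: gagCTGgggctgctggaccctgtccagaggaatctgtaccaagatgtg
ZNF226: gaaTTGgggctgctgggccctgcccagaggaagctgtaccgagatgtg
ZNF552: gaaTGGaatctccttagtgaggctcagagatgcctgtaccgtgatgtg
ZNF562: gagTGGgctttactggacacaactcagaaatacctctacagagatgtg
ZNF700: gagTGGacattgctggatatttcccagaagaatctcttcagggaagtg
Leucine in this place was found in 16 members, 15 with CTG and 1 with TTG. All 16 lie in cluster 7, where only ZNF283 and ZNF404 have tryptophan; the other 189 members with the pattern, in the other clusters or in none, have tryptophan. The leucine members had a median of 2.53 ± 0.28 TPM and the tryptophan members 4.37 ± 0.53 TPM (SD, n = 2 libraries). Since all leucine members sit in 1 cluster, the residue and the place on the chromosome cannot be told apart. Within them the level ran from ZNF223 at 0.419 and 0.408 TPM to ZNF45 at 8.84 and 8.11 TPM, and ZNF226 and ZNF234, shown above, averaged 4.71 ± 0.08 and 5.49 ± 1.99 TPM.

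Members with the KRAB pattern had a median of 4.25 ± 0.52 TPM, against 2.41 ± 0.19 TPM in the 39 without it. Detected were 92.8% of those with the pattern and 89.7% of those without. Of the 12 highest members 4 had no KRAB pattern, ZNF146, ZNF121, ZNF329 and ZNF83. The number of fingers, a median of 12, had a Spearman correlation of 0.065 with the level over 246 members, and coding length one of 0.028. The members shared 30% or more of their 31-base words with other transcripts in 28 cases, and 20 of these 28 were detected (71.4%), against 117 of 125 members that shared under 10% (93.6%). Reads that fit several places were not counted, so this is also a limit on what could be measured.

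Close relatives side by side were compared next. The 10 neighbouring pairs with the highest identity of their coding sequences were taken, from 99.1% in ZNF587 and ZNF417 to 84.2% in ZNF611 and ZNF600. A finger unit is shown for the first and the third pair, to show how alike the genes of a pair can be. Capitals mark the codons of the 2 cysteines and 2 histidines that hold the zinc ion; 5′ to 3′ on the coding strand, in GRCh38 at chr19:57859136-57859219 (plus, ZNF587), chr19:57909471-57909554 (minus, ZNF417), chr19:12391720-12391803 (minus, ZNF799) and chr19:12431494-12431577 (minus, ZNF443).
ZNF587: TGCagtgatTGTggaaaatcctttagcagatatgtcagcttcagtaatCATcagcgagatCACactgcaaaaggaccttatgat
ZNF417: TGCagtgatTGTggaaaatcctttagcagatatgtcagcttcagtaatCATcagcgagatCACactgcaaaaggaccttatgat
ZNF799: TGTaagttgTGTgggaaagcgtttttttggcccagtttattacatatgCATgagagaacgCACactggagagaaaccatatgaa
ZNF443: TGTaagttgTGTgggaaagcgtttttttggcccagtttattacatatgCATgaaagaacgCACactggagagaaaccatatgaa
The units of ZNF587 and ZNF417 differ at 0 of 84 bases and those of ZNF799 and ZNF443 at 1. ZNF799 had 4.55 and 4.0 TPM and ZNF443 0.315 and 0.534 TPM, a 10.4-fold difference, which in reads was 609 and 536 against 23 and 39. ZNF587 had 9.28 and 8.26 TPM and ZNF417 5.47 and 5.45 TPM, 1.6-fold; both bind HERV-K elements. In both pairs the gene named first was higher in each library.

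A pair was called when the exact binomial 95% interval of the ratio, which covers counting error only, lay on the same side of 1 in both libraries and the mean log2 ratio exceeded the 95th percentile of replicate differences at that read depth. By this rule 5 of the 10 pairs differed. Beside those above, ZNF737 stood 2.58-fold over ZNF626 (6.49 and 6.16 TPM against 2.76 and 2.17 TPM). ZNF324 stood 2.00-fold over ZNF324B (4.90 and 4.38 TPM against 2.43 and 2.22 TPM). ZNF98 stood 1.72-fold over ZNF492 (5.72 and 3.77 TPM against 3.11 and 2.34 TPM). In CPM, which leaves exon length out, ZNF98 and ZNF737 no longer passed the rule, while ZNF611 over ZNF600 and ZNF230 over ZNF222 did. All members of these pairs share sequence, so a ratio may also hold reads that could be placed for one gene and not for the other, which was not tested.

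The other 5 pairs did not pass. ZNF264 and ZNF805 had 10.7 and 9.97 TPM against 10.2 and 9.22 TPM, with intervals of the ratio from 0.951 to 1.17 in replicate 1 and from 0.972 to 1.20 in replicate 2. ZNF585B over ZNF585A came to 1.42-fold and ZNF611 over ZNF600 to 1.25-fold. ZNF222 over ZNF223 came to 3.93-fold, a log2 ratio of 1.97, with intervals of the ratio from 3.41 to 7.44 and from 2.03 to 4.78. With 37 and 36 reads (0.894 and 0.968 CPM), ZNF223 stood at the top of the class under 1 CPM. The 95th percentile of replicate differences over that whole class was 2.32, against 0.98 in the class of 1 to 3 CPM. ZNF222 and ZNF230 had 2.09 and 1.26 TPM against 1.71 and 1.41 TPM, so that their order turned round between the libraries.

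**Figure D3:**
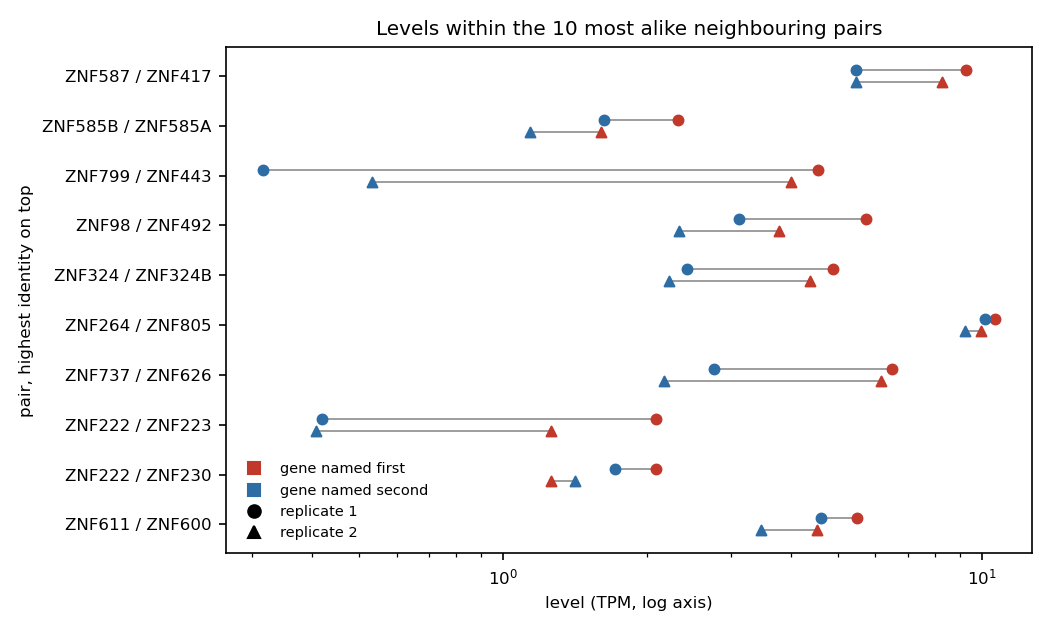
TPM (x axis, log scale) of both genes of the 10 most alike neighbouring pairs (y axis, highest identity on top), the gene named first in red and the second in blue, with a circle for replicate 1 and a triangle for replicate 2. The widest gap, 10.4-fold on average, is that of ZNF799 over ZNF443, and ZNF222 and ZNF230 change places between the libraries.

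Promoters were read from RefSeq windows of 300 bases on GRCh38.p14, 250 of them before the start, which 215 of the 247 members had. The letters CCGGAAG, the core bound by ETS factors, were found on either strand in 99 of them (46.0%), against 34.8% of 207 promoters of ZNF genes elsewhere, 14.5% of 14632 promoters of protein-coding genes and 10.3% of all 35116 promoters. The core is shown in capitals, 5′ to 3′ on the strand of the gene, in the 3 highest members that hold it before the start, at chr19:57279892-57279951 (plus, ZNF460), chr19:57947819-57947878 (minus, ZNF256) and chr19:8832326-8832385 (minus, ZNF558).
ZNF460: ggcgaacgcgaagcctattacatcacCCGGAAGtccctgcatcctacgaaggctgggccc
ZNF256: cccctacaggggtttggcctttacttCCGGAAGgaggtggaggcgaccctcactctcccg
ZNF558: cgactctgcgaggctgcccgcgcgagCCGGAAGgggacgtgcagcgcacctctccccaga
The GC box GGGCGG was found in 68.4% of members' promoters and 59.8% of those of protein-coding genes, and CCAAT in 54.0% and 36.4%. TATAAA was found in 4 of the 215 (1.86%), against 9.29% of protein-coding promoters. GGTCA followed by TGACC with 3 bases between, the palindrome bound by estrogen receptors, was found in 0 of 215 members and 0.0342% of protein-coding promoters. TGACGT, the core of the cAMP response element, was found in 11.2% of members' and 9.79% of protein-coding promoters. None of the searched motifs contains another. Members with and without detection held the ETS core in 46.7% of 199 and 37.5% of 16 promoters, and the number of CpG per promoter, a median of 20, had a Spearman correlation of -0.030 with the level over 215 members. A match describes letters only.

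Replicate 2 was set against replicate 1 for each gene by a two-sided exact binomial test at TMM-scaled library sizes with Benjamini-Hochberg adjustment over 14668 genes, which sets these libraries against counting error and not against a condition. Of the 227 members tested 69 differed at an adjusted p of 0.05 or less (30.4%), against 39.7% of all genes tested. Lower in replicate 2 were 46 of the 227, against 20.3% of all genes tested, and higher were 23 of the 227, against 19.4%. The share that was lower was thus near that of all genes, and the share that was higher was below it. The test calls smaller differences in genes with more reads, and the shares were not compared at equal read depth. ZNF888 differed most, with 102 reads in replicate 1 and 54 in replicate 2, a log2 ratio of -0.74. ZNF730 followed on the same side with 432 and 252 reads. On the other side stood ZNF526 (292 and 416 reads), ZNF345 (86 and 122) and ZNF576 (287 and 386).

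The counts in each direction differed between clusters, a difference that was not tested. In cluster 6, 11 of 26 tested members were lower in replicate 2 and 1, ZNF345, was higher. There ZNF566 had 549 reads in replicate 1 and 324 in replicate 2. In cluster 4, 10 of 35 were lower and 1 higher, and in cluster 8, 11 of 37 were lower and 4 higher. In cluster 10, 2 of 41 were lower and 11 higher, ZNF552 among them with 2887 and 3100 reads. Cluster 9, with the highest median coding GC, had 1 of 14 lower and 1 higher. Cluster 7 had 2 of 19 lower and 2 higher, and cluster 3 had 3 of 22 lower and 1 higher. Clusters 1, 2 and 5 held 5, 11 and 5 tested members, of which 1, 3 and 1 were called. Over all genes tested 20.3% were lower and 19.4% higher. Uneven counts were also found outside the family. Of 661 other protein-coding genes of chromosome 19 tested, 41 were lower and 215 higher. Of 220 ZNF genes elsewhere, 60 were lower and 25 higher. The log2 ratio of replicate 2 to replicate 1 had a Spearman correlation of 0.41 with the GC share of the coding sequence over the 227 members, which share both libraries. Of 34 members with over 50% GC, none was lower and 5 were higher, against 46 lower and 18 higher of 193 with 50% or less. The part of GC content in the replicate differences was not tested. In TPM and with gaps over 500 kb, cluster 2 was highest and cluster 9 lowest in each library.

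**Figure D4:**
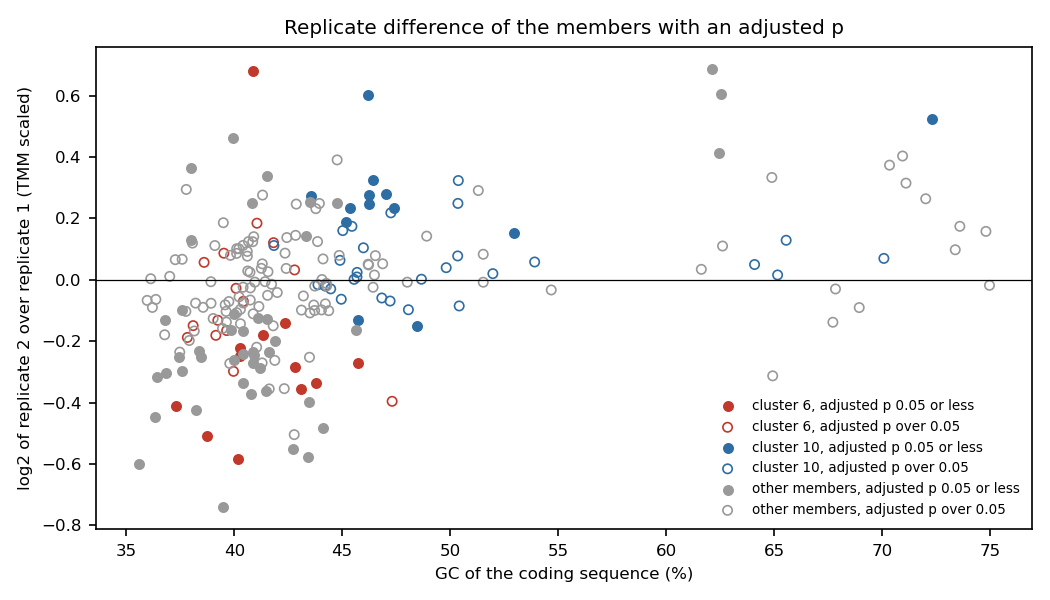
Log2 ratio of replicate 2 to replicate 1 (y axis, TMM scaled) against the GC share of the coding sequence (x axis, %) for the 227 members tested, filled where the adjusted p was 0.05 or less, with clusters 6 and 10 in colour. Called members of cluster 6 lie below the line except ZNF345, those of cluster 10 above it except 2.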

How the data were processed

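The authors used featureCounts 2.0.2 to count reads over the exons of each GENCODE release 19 gene, per the file headers, without options for strand, pairs, multimapping or overlapping reads; the deposited values are whole-number counts with no normalization, and the deposited length is the summed exon length. The build hg19 (GRCh37) and the aligner HISAT2, without a version, are named per the submitters' processing notes. Strand was not used, so reads of overlapping antisense genes cannot be told apart. Libraries were stranded and depleted of ribosomal RNA, per the labels' protocols. Another 8 columns of per-sample values matched no sample described here and were not used.

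From the deposited counts, CPM and TPM were computed over 57820 genes; a level is the mean over libraries of log2(TPM + 0.1). Names and types came from GENCODE release 29 by identifier, which matched 52338 identifiers (90.5%), so retired identifiers could not become members. TMM factors came from edgeR 4.0.16, run in R 4.3.3, and the exact tests from scipy 1.17.1. The binomial test was checked on simulated counts. Intervals and floors (3 reads for a count of 0) cover counting error only. Fingers, KRAB patterns and identities were read from coding sequences of GENCODE release 29, the longest per gene; pairs were ranked by nucleotide identity in place of protein identity, leaving out genes that overlap on the genome, because protein sequences were not used here. The text names the 12 highest members, the highest and lowest of each cluster, members without a read and the 5 largest replicate differences. It also names the 10 pairs, ZNF274, the members next to the threshold and the partner list. Others are said to be chosen later or illustrate a count or a range. The members and lists were chosen with earlier results of these data known. Alternatives were another unit, pseudocount, threshold, gap, scaling, fewer members and 1 library.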

Additional observations from a re-analysis of the deposited data

How the results depend on the processing

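No paired analysis was possible because there is 1 group. The count of detected members stayed between 212 (2 CPM or more) and 235 (10 reads or more) of 247 under the other thresholds; with members sharing over 5% of exon bases left out it was 151 of 161, and with 1 library it was 228 to 229. The members' median log2 level minus that of protein-coding genes was 0.77, from 0.73 to 0.82 with 1 library, 0.60 with a pseudocount of 1, 0.92 without shared exon bases, and reversed to -0.32 among genes with a read. The span of cluster medians was 1.92 on the log2 scale, from 1.86 to 2.00 with 1 library; it was 2.13 with gaps over 250 kb, 1.19 with gaps over 1 Mb, 2.08 in CPM, 1.51 with a pseudocount of 1 and 2.43 without shared exon bases. In CPM the highest cluster was cluster 8 and not cluster 2. With gaps over 1 Mb, which gave 9 clusters, the highest was the one starting at 2.82 Mb and the lowest the one starting at 36.67 Mb, in place of clusters 2 and 9. Relative to the family median, cluster 1 turned from 0.56 to -0.48 in CPM and -0.22 without shared exon bases, cluster 5 from 0.17 to -0.59 in CPM, and cluster 3 from -0.049 to 0.73 without shared exon bases. The replicate test called 64 to 71 members under other scalings and filters, and 5 pairs were called under each setting, though not the same 5 in CPM. The log2 ratio of ZNF222 to ZNF230 was 0.062, reversed to -1.59 in CPM and ranged from -0.16 to 0.29 with 1 library. The cause of these shifts was not tested. With 2 libraries of 1 group, no spread between cultures can be separated from technical spread.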
